A study of Mus musculus with 3 samples.

Results

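The colony-stimulating factor receptors Csf1r, Csf2ra, Csf2rb and Csf3r were followed through brain myeloid cells of mice. These 4 genes were taken by name, out of 14221 genes listed in at least 1 of the count tables, and all 4 were listed in all 3 tables. Cells were released from brain by enzymatic digestion, sorted for CD11b and CD45, which takes microglia with other myeloid cells, and profiled with the 10x Genomics droplet kit that counts the 3′ ends of transcripts. One library came from an MHC class II-deficient mouse in which CD4 T cells were almost completely missing, and its age is not labelled. The other 2 came from adult wild type (WT) mice, WT 1 and WT 2. The labels do not name the disrupted gene, the strain or the sex. The study asked how microglia depend on CD4 T cells. Because the deficient genotype is represented by 1 library, the spread between deficient animals was not measured, and every genotype test rests on the difference between the WT pair.

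Each of these receptors binds a growth factor of myeloid cells. Csf1r is the tyrosine kinase receptor for CSF1 (M-CSF) and IL-34, and microglia and other tissue macrophages depend on it for survival. Csf2ra is the ligand-binding chain of the receptor for GM-CSF (CSF2), and Csf2rb is the signalling chain it shares with the receptors for IL-3 and IL-5. Csf3r is the receptor for G-CSF (CSF3) and is best known for driving neutrophil production and release.

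The deficient, WT 1 and WT 2 libraries held 2278, 4589 and 4815 barcodes and 6616662, 16230216 and 17293844 unique molecular identifiers (UMIs, each counting 1 captured transcript). After filtering, 2257, 4340 and 4667 cells were left, with medians of 2824, 3384.5 and 3338 UMIs per cell. Of the MHC class II genes H2-Aa, H2-Ab1 and H2-Eb1, none was listed in the deficient table, while the WT tables held them at 161.7 to 258 CPM (UMIs per 1000000 UMIs of the library). Of the barcodes in the deficient, WT 1 and WT 2 tables, 32, 49 and 43 also occurred in another library.

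Cells were assigned to a class by the marker list with the most UMIs, leaving the receptors out of all lists. In the deficient, WT 1 and WT 2 libraries this gave 5, 10 and 13 border macrophages, 19, 44 and 32 monocytes, 17, 294 and 143 neutrophils, and 2205, 3936 and 4436 microglia. The median neutrophil carried 1329 neutrophil marker UMIs and 3 microglial marker UMIs. The median monocyte carried 57 monocyte and 6 microglial marker UMIs, and the median microglial cell 125 microglial and 2 neutrophil marker UMIs. Border macrophages were less well separated, with medians of 51.5 marker UMIs of their own and 12.5 microglial ones. A gate on marker sums is a range and not a cell type. Of the 28 border macrophages, 14 were lost when a 4-fold lead over the other lists was required in place of 2-fold, and 19 further cells joined when no lead was required. The same limits removed 25 of 95 monocytes, 9 of 454 neutrophils and 47 of 10577 microglia. A cluster of 163 cells with border macrophage markers, found by clustering, contained all 28 of these cells and 71 gated as microglia, and is given below as a second estimate.

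**Figure D1:**
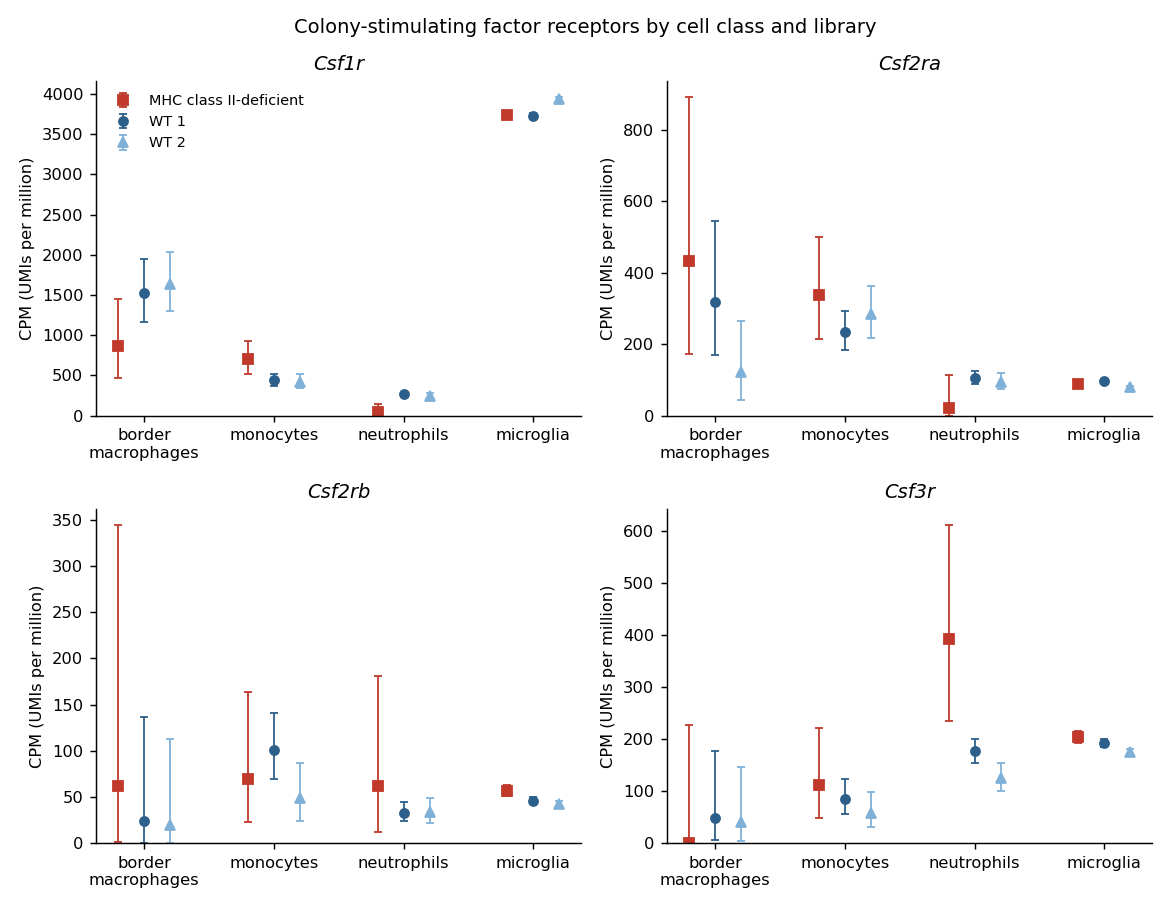
Level of each receptor in CPM (UMIs per 1000000 UMIs of the class total, linear axes) in 3 marker-gated classes and in microglia. Each point is 1 library (red squares deficient, dark circles WT 1, light triangles WT 2) and bars are exact Poisson 95% intervals, which cover counting error only. Csf1r separates the classes without overlap, with 41.3 to 264 CPM in neutrophils and 3727 to 3930 CPM in microglia, and Csf3r in microglia lies inside the range of the neutrophil libraries on this scale.

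Csf1r, the receptor for CSF1 and IL-34, was a near-universal microglial transcript and was lower in each other class. At least 1 UMI was found in 99.7%, 99.5% and 99.7% of microglia in the deficient, WT 1 and WT 2 libraries. Csf1r extends over chr18:61100598-61132149 on the plus strand of mm10, and its 3′ end overlaps Hmgxb3 on the opposite strand. Whether the authors counted by strand is not given in the sources used here.

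In border macrophages, the macrophages of the meninges, perivascular spaces and choroid plexus, Csf1r was present at 866 CPM in the deficient library, 1519 CPM in WT 1 and 1642 CPM in WT 2. In the cluster with border macrophage markers it stood at 737 CPM in the deficient library, 2182 CPM in WT 1 and 2089 CPM in WT 2. Both estimates were below the 3735, 3727 and 3930 CPM of microglia in the deficient, WT 1 and WT 2 libraries, and lowest in the deficient library. That cluster's microglial markers moved alongside. Its median microglial marker stood at 2.80% of the microglial level in the deficient library, against 34.5% in WT 1 and 38.2% in WT 2, and the part of this material in the Csf1r level was not tested.

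Monocytes, the circulating precursors of macrophages, held Csf1r at 701 CPM in the deficient library, 442 CPM in WT 1 and 421.5 CPM in WT 2. Relative to microglia this was 18.8%, 11.9% and 10.7% in the deficient, WT 1 and WT 2 libraries. The microglial markers in the same monocytes had medians of 1.86%, 1.76% and 1.97% of their microglial level and maxima of 9.49%, 8.46% and 6.66%. The Csf1r ratio was above that of every microglial marker in each library. The same markers set the gate, where monocyte marker UMIs had to be at least 2-fold the microglial ones. This limits the marker ratios in monocytes but not that of Csf1r. Classical monocytes, the Ly6c2-rich kind, had 517 CPM in the deficient library, 410 CPM in WT 1 and 414 CPM in WT 2. Non-classical monocytes, the patrolling kind, had 1382 CPM in 7 deficient cells, 1186 CPM in 4 WT 1 cells and 480 CPM in 6 WT 2 cells. Only 12 of the 19 deficient monocytes were classical, against 40 of 44 in WT 1 and 26 of 32 in WT 2.

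In neutrophils Csf1r stood at 41.3 CPM in the deficient library, 264 CPM in WT 1 and 243 CPM in WT 2. The deficient value rests on 2 UMIs in 17 cells. As a share of the microglial level these were 1.11%, 7.08% and 6.19% in the deficient, WT 1 and WT 2 libraries. The 12 microglial markers in the same neutrophils had medians of 0.917% in the deficient library, 7.27% in WT 1 and 5.84% in WT 2. Csf1r thus lay within the range of the microglial markers in every library, 0 to 4.36% in the deficient library, 5.87% to 10.7% in WT 1 and 4.89% to 7.87% in WT 2. No neutrophil expression of Csf1r is read from UMIs at this level, and their source was not tested.

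In microglia Csf1r stood at 3735 CPM in the deficient library, 3727 CPM in WT 1 and 3930 CPM in WT 2. The deficient value lay between the WT values.

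Across classes Csf1r fell in the order microglia, border macrophages, monocytes and neutrophils, and no neighbouring classes overlapped over the 3 libraries. The class differences were tested in 1 fit of 12 summed profiles with library as a block (edgeR's quasi-likelihood test with TMM scaling and Benjamini-Hochberg adjustment over 5869 genes). Csf1r was lower than in microglia by 1.68 ± 0.40 on the log2 scale in border macrophages (SE, adjusted p = 0.0006), a comparison in which 13.7% of all genes passed, 5.83% higher and 7.91% lower. The log2 difference was -2.79 ± 0.41 for monocytes minus microglia (SE, edgeR adjusted p = 6.3e-11, where 52.4% of genes passed, 25.9% higher and 26.5% lower) and -3.02 ± 0.42 for neutrophils minus microglia (SE, edgeR adjusted p = 3.1e-12, where 61% of genes passed, 29.8% higher and 31.3% lower). The border macrophage difference no longer passed without WT 2 (-1.76, edgeR adjusted p = 0.086).

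Csf2ra, the GM-CSF binding chain at chr19:61223957-61228429 on the minus strand of mm10, was highest in the cells other than microglia and neutrophils. Monocytes held it at 336 CPM in the deficient library, 235 CPM in WT 1 and 284 CPM in WT 2, with a UMI in 73.7%, 79.5% and 78.1% of cells. Border macrophages had 433 CPM, 318 CPM and 122 CPM from 7, 13 and 6 UMIs in the deficient, WT 1 and WT 2 libraries. The cluster with border macrophage markers gave 272.5 CPM in the deficient library, 228 CPM in WT 1 and 171 CPM in WT 2. Border macrophages and monocytes overlapped each other, while monocytes lay above microglia in every library.

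Neutrophils had 20.6 CPM of Csf2ra in the deficient library from 1 UMI, 106 CPM in WT 1 and 94.95 CPM in WT 2. Microglia had 87.4 CPM in the deficient library, 97.0 CPM in WT 1 and 79.4 CPM in WT 2. The ranges of neutrophils and microglia overlapped. On the log2 scale Csf2ra was higher than in microglia by 1.78 ± 0.26 in monocytes (SE, edgeR adjusted p = 4.0e-11). It was higher by 1.37 ± 0.41 in border macrophages (SE, edgeR adjusted p = 0.011). The border macrophage call was lost without WT 1 (1.32, edgeR adjusted p = 0.18), without the deficient library (1.15, edgeR adjusted p = 0.063) and at 4-fold marker dominance (1.07, edgeR adjusted p = 0.26).

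Comparisons with neutrophils depended on how the profiles were scaled. Transcripts of all marker lists together made up 48.2% of neutrophil UMIs in the deficient library, 45.1% in WT 1 and 48.7% in WT 2. Nearly all of these were of the neutrophil list, which lowers the CPM of all other genes in that class. The median gene differed by -1.43 on the log2 scale between neutrophils and microglia when profiles were scaled by their total UMIs, against -0.10 with TMM. The calls divided into 1747 higher and 1836 lower genes with TMM, and into 748 higher and 4261 lower genes with totals alone. Csf2ra was 1.38 ± 0.26 higher in neutrophils than in microglia with TMM (SE, edgeR adjusted p = 4.9e-07), against 0.10 with totals alone (edgeR adjusted p = 0.65). Relative to the median gene it stood 1.49 higher with TMM and 1.53 higher with totals alone. A change of scaling shifts all genes by nearly the same amount, so these values agree by construction. The TMM call for Csf2ra was lost without WT 2 (1.08, edgeR adjusted p = 0.057).

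Csf2rb, the signalling chain, lies at chr15:78325752-78353847 on the plus strand of mm10, and close by on the opposite strand lies Csf2rb2, a copy that in mice serves IL-3 only, at chr15:78282507-78305721. Their coding sequences are 92.9% identical over aligned positions, so the counts depend on reads being told apart. The last 400 bases of the transcripts, where 3′ libraries place their reads, are 75.7% identical. The gap-free coding stretch of 90 bases nearest the stop codon is shown for both genes because it lets the copies be distinguished. Capitals mark the 6 positions at which they differ, and the letters come from the GENCODE transcripts on mm10.
Csf2rb: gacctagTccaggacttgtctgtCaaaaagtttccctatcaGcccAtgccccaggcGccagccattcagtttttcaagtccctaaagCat
Csf2rb2: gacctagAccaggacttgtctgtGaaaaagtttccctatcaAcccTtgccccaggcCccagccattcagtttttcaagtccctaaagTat

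Monocytes held Csf2rb at 70.1 CPM in the deficient library, 101 CPM in WT 1 and 48.8 CPM in WT 2. Neutrophils held it at 61.9 CPM in the deficient library from 3 UMIs, 33.3 CPM in WT 1 and 33.4 CPM in WT 2. Border macrophages had 1 UMI of Csf2rb in each library.

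In microglia Csf2rb stood at 56.7 CPM in the deficient library, 46.0 CPM in WT 1 and 42.7 CPM in WT 2. Csf2rb2 stood at 13.04 CPM in the deficient library, 12.6 CPM in WT 1 and 10.9 CPM in WT 2. The deficient library was the highest for both genes. Outside microglia Csf2rb2 had at most 2 UMIs in any gated class of a library. Every pair of neighbouring classes overlapped over the libraries, so the CPM gave no order of classes for this chain. On the log2 scale Csf2rb was 0.88 ± 0.30 higher in monocytes than in microglia (SE, edgeR adjusted p = 0.0085), a call lost with other size factors (0.59, edgeR adjusted p = 0.059), with DESeq2 (0.54, adjusted p = 0.19), without WT 2 (0.99, edgeR adjusted p = 0.078) and when the copies were summed (0.60, edgeR adjusted p = 0.073). In neutrophils minus microglia it was 0.87 ± 0.28 with TMM (SE, edgeR adjusted p = 0.0035) and -0.46 with totals alone (edgeR adjusted p = 0.07). Relative to the median gene it stood 0.97 higher under both scalings, an agreement that holds by construction. That TMM call was lost with other size factors (0.47, edgeR adjusted p = 0.095), with DESeq2 (0.50, adjusted p = 0.20), without WT 2 (0.74, edgeR adjusted p = 0.21) and over Camp-led neutrophils alone (0.64, edgeR adjusted p = 0.077). In border macrophages minus microglia it was -0.85 ± 0.86 (SE, edgeR adjusted p = 0.61), with an interval of -2.54 to 0.83 that leaves the direction unset. Without WT 1 Csf2rb had too few UMIs to enter the class fit.

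A working GM-CSF receptor needs both chains. At least 1 UMI of each was found in 15.8% of deficient monocytes (3 of 19, exact 95% interval 3.38% to 39.6%), 40.9% of WT 1 monocytes (18 of 44) and 25.0% of WT 2 monocytes (8 of 32). In neutrophils the shares were 0%, 7.14% and 10.5% in the deficient, WT 1 and WT 2 libraries, and in microglia 3.13%, 4.42% and 3.61%. Monocytes lay above the other classes in every library. WT monocytes were also deeper, with medians of 7161.5 and 7530 UMIs per cell in WT 1 and WT 2, against 3013.5 and 3394 in neutrophils and 3381 and 3329.5 in microglia. In the deficient library the medians were 2416 UMIs in monocytes, 2177 in neutrophils and 2826 in microglia. The 12 classical monocytes of that library were deeper, with a median of 4598.5 UMIs. Its 7 non-classical monocytes, with a median of 2202 UMIs, had 0 Csf2rb UMIs. The part of depth in these shares was not tested. Of 5, 10 and 13 border macrophages in the deficient, WT 1 and WT 2 libraries, none had both chains, which at 5 cells allows a share of up to 52.2% by the exact binomial limit.

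Csf3r, the G-CSF receptor at chr4:126024550-126044440 on the plus strand of mm10, was detected in microglia as well as in neutrophils. In CPM of the class total the classes overlapped, while with marker transcripts taken out of the totals neutrophils were higher in every library. Per cell the neutrophil values were also higher, but the WT shares of cells differed by less than their counting error. Neutrophils had 392.2 CPM in the deficient library from 19 UMIs, 177 CPM in WT 1 and 126 CPM in WT 2. Microglia had 204 CPM in the deficient library, 193 CPM in WT 1 and 175 CPM in WT 2. The WT neutrophils thus lay below the microglia of their own library and the deficient neutrophils above theirs, and the class ranges overlapped.

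Per cell, neutrophils carried 1.12 Csf3r UMIs in the deficient library, 0.813 in WT 1 and 0.657 in WT 2. Microglia carried 0.595, 0.696 and 0.632 in the deficient, WT 1 and WT 2 libraries. A Csf3r UMI was found in 70.6%, 48.0% and 46.9% of neutrophils and in 42.8%, 47.6% and 45.2% of microglia, each in the order deficient, WT 1 and WT 2. The per-cell measures were thus higher in neutrophils in all 3 libraries, with the smallest gap in WT 2 for UMIs and in WT 1 for the share of cells. After each cell was thinned to 1000 UMIs, 40.0% of neutrophils and 19.1% of microglia kept one in the deficient library, 25.4% and 17.5% in WT 1, and 22.9% and 16.4% in WT 2. With the marker transcripts taken out of the totals, neutrophils had 757, 322 and 245 CPM and microglia 212, 201 and 183 CPM in the deficient, WT 1 and WT 2 libraries. On this scale neutrophils were higher in every library.

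The fitted log2 difference of neutrophils minus microglia for Csf3r was 1.16 ± 0.25 with TMM (SE, edgeR adjusted p = 1.4e-05), and -0.15 with totals alone (edgeR adjusted p = 0.49). The sign of the fitted Csf3r difference therefore depended on the scale. As a part of all class UMIs, Csf3r was lower in WT neutrophils than in the microglia of their library. It was higher in deficient neutrophils than in deficient microglia. The Csf3r difference stood above that of the median gene by 1.26 with TMM and by 1.29 with totals alone. A change of scaling shifts all genes by nearly the same amount, so these values agree by construction.

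Neutrophil RNA in microglial droplets was measured through the neutrophil markers. Their microglial level had a median of 0.0106% of the neutrophil level in the deficient library, 0.318% in WT 1 and 0.133% in WT 2, and no marker exceeded 0.334%, 1.21% and 1.004% in these libraries. The corresponding Csf3r ratio was 51.9% in the deficient library, 109% in WT 1 and 139% in WT 2. Csf3r in microglia was thus at least an order of magnitude above the ratio of each of 13 neutrophil markers, in every library. These markers also set the gate, which keeps cells rich in them out of microglia. Their ratios therefore cover only the neutrophil RNA that the gate admits.

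**Figure D2:**
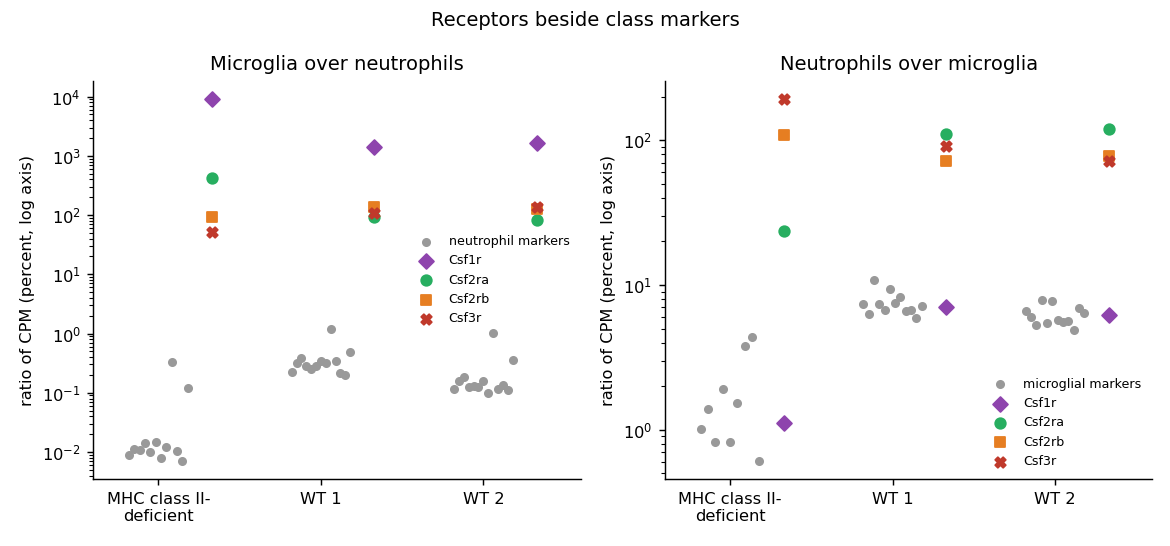
Ratio of CPM between microglia and neutrophils in percent (log axes) for each receptor and for the markers of the class in the denominator (grey), per library; markers at 0, found only in the deficient library, are not drawn. Left, Csf3r in microglia over neutrophils lies at 51.9% to 139%, far above the neutrophil markers. Right, Csf1r in neutrophils over microglia lies among the microglial markers. The grey markers also set the gate.

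Neutrophils were not uniform. They were divided by whether transcripts of mature cells (Retnlg, Cxcr2, Il1r2) or of secondary granules (Camp, Ngp, Ltf) had more UMIs, a division added after the data were seen. Retnlg-led cells numbered 13, 168 and 74 and Camp-led cells 4, 126 and 69 in the deficient, WT 1 and WT 2 libraries. Csf3r stood at 623 CPM in Retnlg-led cells of the deficient library, 438 CPM in WT 1 and 437 CPM in WT 2. In Camp-led cells it stood at 132 CPM in the deficient library, from 3 UMIs, 69.8 CPM in WT 1 and 46.9 CPM in WT 2. Retnlg-led cells were higher in every library, without overlap. They also had fewer UMIs per cell, with medians of 1659, 1926.5 and 1708.5, against 5660, 5776.5 and 6489 in Camp-led cells.

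Set against microglia with TMM, Csf3r was 2.21 higher on the log2 scale in Retnlg-led neutrophils (edgeR adjusted p = 7.6e-12). In Camp-led neutrophils it was -0.30 with TMM (edgeR adjusted p = 0.39). Totals alone were not fitted for these subsets. In CPM, microglia lay between these neutrophil subsets in all 3 libraries. Retnlg-led cells, microglia and Camp-led cells had 438, 193 and 69.8 CPM in WT 1, and 437, 175 and 46.9 CPM in WT 2. The deficient Camp-led value rests on 3 UMIs, and its interval of 27.2 to 385 CPM contained the microglial 204 CPM. With marker transcripts taken out of the totals, deficient Camp-led cells were above microglia, at 309 against 212 CPM. On that scale Camp-led cells stayed below microglia in WT 1 (135 against 201 CPM) and WT 2 (97.9 against 183 CPM). Thinned to 1000 UMIs, a Csf3r UMI was kept in 45.5%, 39.9% and 41.3% of Retnlg-led cells in the deficient, WT 1 and WT 2 libraries and in 25.0%, 6.56% and 5.88% of Camp-led cells. The deficient Camp-led value is 1 of 4 cells. Retnlg-led cells made up 76.5% of deficient neutrophils (13 of 17, exact 95% interval 50.1% to 93.2%), against 57.1% in WT 1 and 51.7% in WT 2. The deficient interval contains both WT shares, and the part of composition in the Csf3r level of deficient neutrophils was not tested.

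**Figure D3:**
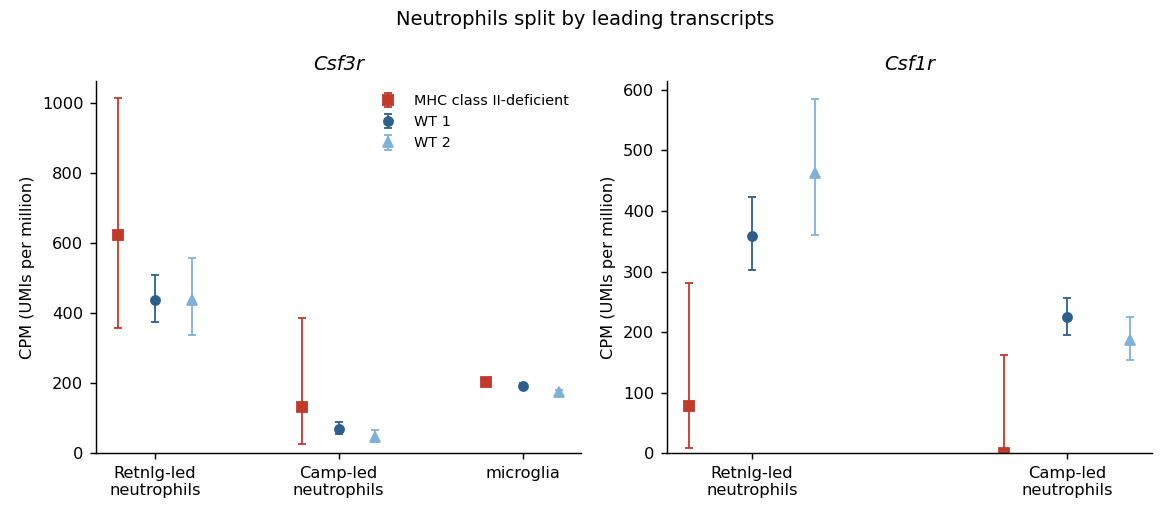
Csf3r (left) and Csf1r (right) in CPM (linear axes) in neutrophils led by Retnlg, Cxcr2 and Il1r2 or by Camp, Ngp and Ltf, with microglia as the last group in the left panel. Each point is 1 library and bars are exact Poisson 95% intervals for counting error only. Csf3r at 437 to 623 CPM in Retnlg-led cells lies above microglia, and Camp-led cells at 46.9 to 132 CPM below. The interval of the deficient Camp-led point contains the microglial value.

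Monocytes held Csf3r at 112 CPM in the deficient library, 85.3 CPM in WT 1 and 57.7 CPM in WT 2. Border macrophages held it at 0 CPM in the deficient library, where 3 counts would be 186 CPM, 49.0 CPM in WT 1 and 40.5 CPM in WT 2, from 2 UMIs in each WT library. The cluster with border macrophage markers gave 64.1 CPM in the deficient library, 82.7 CPM in WT 1 and 78.8 CPM in WT 2. Monocytes were below microglia in every library, and so was that cluster. On the log2 scale Csf3r was lower than in microglia by 1.09 ± 0.31 in monocytes (SE, edgeR adjusted p = 0.0014), and the difference was -2.43 ± 0.65 for border macrophages minus microglia (SE, edgeR adjusted p = 0.0027). The monocyte call was lost without WT 2 (-0.95, edgeR adjusted p = 0.12). The border macrophage call was lost without WT 1 (-2.57, edgeR adjusted p = 0.055), without WT 2 (-2.49, edgeR adjusted p = 0.11) and at 4-fold marker dominance (-2.45, edgeR adjusted p = 0.053).

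The genotype comparison in microglia covered 11903 genes, of which 1328 (11.2%) passed at an adjusted p of 0.05, 341 higher (2.86%) and 987 lower (8.29%) in the deficient library. Of the receptors 1 passed. Csf2rb was 0.36 ± 0.11 higher on the log2 scale in deficient microglia (SE, 95% interval 0.14 to 0.58, edgeR adjusted p = 0.016), from the CPM given above. The call was lost with DESeq2 (0.37, adjusted p = 0.70), under the stricter cell filter (0.34, edgeR adjusted p = 0.068), over all retained cells (0.31, edgeR adjusted p = 0.14) and after thinning to 1000 UMIs (0.36, edgeR adjusted p = 0.24). Against single WT libraries the log2 ratio was 0.29 and 0.40. Summing Csf2rb with Csf2rb2 gave 0.32 (edgeR adjusted p = 0.019). Per cell the gene gave 0.166 UMIs in the deficient library, 0.166 in WT 1 and 0.154 in WT 2, while deficient microglia had a lower median of 2826 UMIs per cell against 3381 and 3329.5.

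The other receptors did not pass in microglia. Csf1r differed by -0.03 ± 0.14 (SE, 95% interval -0.31 to 0.25, edgeR adjusted p = 0.94). Csf2ra differed by -0.0018 ± 0.099 (SE, 95% interval -0.20 to 0.19, edgeR adjusted p = 0.99). Csf3r differed by 0.16 ± 0.098 (SE, 95% interval -0.04 to 0.35, edgeR adjusted p = 0.38), with the deficient value above both WT values. The intervals assume that the deficient library varies like WT. Csf2rb2 differed by 0.16 ± 0.20 (SE, edgeR adjusted p = 0.70).

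The other genes of these pathways reported here numbered 49, of which 40 were tested in microglia. Of those, 7 were lower (17.5%, beside 8.29% of all genes tested) and 33 did not pass, and the median log2 difference was -0.02, beside -0.002 over all 11903 genes. Among ligands, Csf1 was at 14.0 normalised CPM in deficient microglia, 22.5 in WT 1 and 17.7 in WT 2, a log2 difference of -0.51 ± 0.17 (SE, edgeR adjusted p = 0.033). The Csf1 call was lost under 10 of 13 tested alternatives and the value was 0.36 (edgeR adjusted p = 0.80) in the tertile of microglia with the lowest immediate early gene share. Il34, Csf2, Csf3, Il3 and Il5 were listed in none of the tables. Of the partner chains, Tyrobp, the adaptor DAP12 that couples to Csf1r signalling, differed by 0.22 ± 0.14 (SE, edgeR adjusted p = 0.37). Il3ra, the IL-3 binding chain, stood at 2.65, 2.45 and 2.63 normalised CPM in the deficient, WT 1 and WT 2 libraries and did not pass.

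Of 16 kinases and adaptors, 2 were lower (12.5%, beside the same 8.29%) and 14 did not pass. Grb2, an adaptor that links receptor tyrosine kinases to Ras, was at 44.5 normalised CPM in deficient microglia, 135 in WT 1 and 125 in WT 2, a log2 difference of -1.55 ± 0.11 (SE, edgeR adjusted p = 1.8e-24). Mapk3 (ERK1), a kinase downstream of Ras, fell by 0.35 on the log2 scale (edgeR adjusted p = 0.008). The call was lost with DESeq2 (-0.34, adjusted p = 0.395) and in the tertile of microglia with the lowest immediate early share (-0.38, edgeR adjusted p = 0.06). The most abundant of these members, the Src family kinase Lyn, the PI3-kinase subunit Pik3r1 and the Janus kinase Jak1, differed by -0.09, 0.18 and 0.09 and did not pass.

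Of the STATs, the transcription factors that cytokine receptors activate, 3 are reported and did not pass. Stat3 differed by 0.18 on the log2 scale (edgeR adjusted p = 0.265), but passed in the lowest immediate early tertile at 0.64 (edgeR adjusted p = 4.99e-05). Stat5b and Stat5a, main targets of GM-CSF signalling, differed by 0.08 and -0.0018. Of 10 inhibitors tested, 2 were lower (20%, beside 8.29%). Sh2b3 (LNK), an adaptor that restrains cytokine signalling, was at 35.7 normalised CPM in deficient microglia, 90.9 in WT 1 and 98.8 in WT 2 (log2 difference -1.41 ± 0.11, SE, edgeR adjusted p = 2.3e-21). Socs1, a feedback inhibitor of JAK kinases, fell by 0.92 from levels under 8 normalised CPM (edgeR adjusted p = 0.025). The Socs1 call was lost under 8 of 13 tested alternatives, among them DESeq2 (adjusted p = 0.754), thinning (-0.42, edgeR adjusted p = 0.758) and the lowest immediate early tertile (0.009, edgeR adjusted p = 0.997). Socs3, Inpp5d (SHIP1) and Ptpn6 (SHP-1), the most abundant inhibitors, differed by -0.02, 0.27 and -0.18 and did not pass. In the lowest immediate early tertile Socs3 was higher in deficient microglia by 0.78 (edgeR adjusted p = 5.04e-07).

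**Figure D4:**
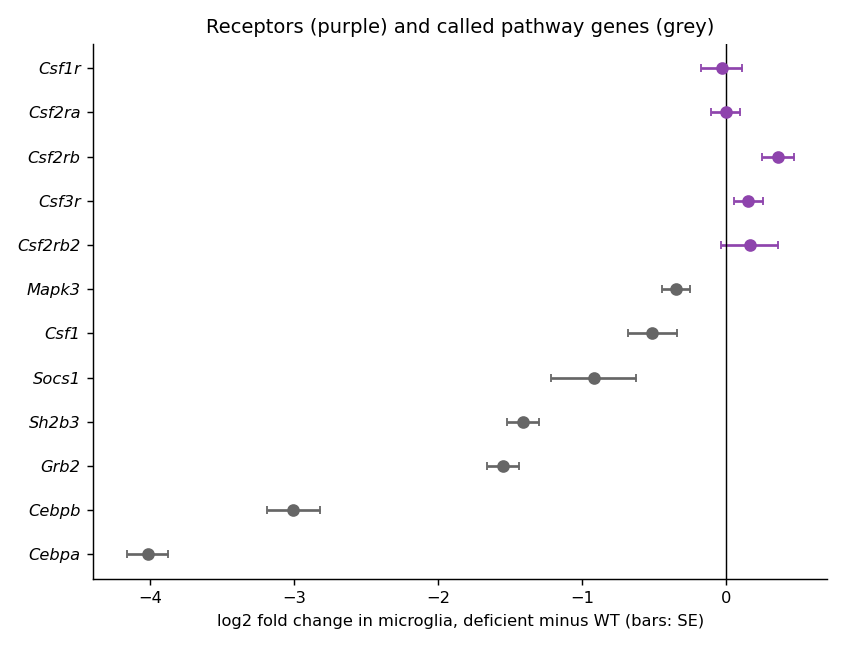
Log2 fold change of the receptors, Csf2rb2 (purple) and the reported pathway genes that passed (grey) in microglia, deficient minus WT, with standard errors from the edgeR fit of 1 deficient and 2 WT libraries. The receptors lie between -0.03 and 0.36, while Cebpa at -4.02, Cebpb at -3.003 and Grb2 at -1.55 lie far lower.

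Transcription factors that act on promoters of myeloid receptors, as known from earlier work, made up 7 tested genes, of which 2 were lower (28.6%, beside 8.29%) and 5 did not pass. Cebpa was at 30.7 normalised CPM in deficient microglia, 544 in WT 1 and 452 in WT 2, a log2 difference of -4.02 ± 0.14 (SE, edgeR adjusted p = 9.5e-49). Cebpb was at 8.58 normalised CPM in deficient microglia, 86.7 in WT 1 and 51.5 in WT 2 (log2 difference -3.003 ± 0.18, SE, edgeR adjusted p = 5.6e-29). Spi1 (PU.1), Irf8, Runx1 and Fli1 differed by between -0.03 and 0.02 and did not pass, nor did Ets2 at -0.49 (edgeR adjusted p = 0.070). Beside the lower Cebpa and Cebpb, the level of Csf3r, a textbook target of C/EBP factors, was 204 CPM in deficient microglia against 193 and 175 CPM. A link between these levels was not tested.

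The promoters of Csf2ra and Csf3r are shown because Spi1 is measured above and both hold GAGGAA, the letters of a core that PU.1 is known to bind. They are the 250 bases before the RefSeq start on GRCm38.p6, read 5′ to 3′ on the gene's strand, at chr19:61228419-61228668 (minus) and chr4:126024409-126024658 (plus). Capitals mark GAGGAA, searched on both strands as the only motif. Both windows reach into the GENCODE gene, whose annotated start is upstream of the RefSeq one. The last 109 bases of the Csf3r window lie inside it, with its match, and the last 11 bases of the Csf2ra window, with 1 of its 2 matches.
Csf2ra: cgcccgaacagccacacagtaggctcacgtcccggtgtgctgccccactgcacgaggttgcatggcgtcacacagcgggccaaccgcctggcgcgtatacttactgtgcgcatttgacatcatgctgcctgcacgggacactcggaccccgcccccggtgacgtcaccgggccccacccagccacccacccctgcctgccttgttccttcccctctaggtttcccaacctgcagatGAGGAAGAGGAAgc
Csf3r: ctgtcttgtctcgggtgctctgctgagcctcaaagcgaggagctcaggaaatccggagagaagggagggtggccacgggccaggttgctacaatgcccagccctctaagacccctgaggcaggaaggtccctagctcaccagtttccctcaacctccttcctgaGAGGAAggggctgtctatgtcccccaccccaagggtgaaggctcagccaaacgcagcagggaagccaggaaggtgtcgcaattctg

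Csf2ra held 2 adjacent matches and Csf3r 1. The same letters occurred in 7639 of 32851 RefSeq promoter windows of this length (23.25%), so the matches are a description of these windows only. Promoters of Csf1r and Csf2rb are not shown.

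Within microglia the receptors varied with expression state. Cells with at least 4 of 12 interferon-induced genes numbered 16, 42 and 43 in the deficient, WT 1 and WT 2 libraries. Their Csf1r was 2617 CPM in the deficient library, 3101 CPM in WT 1 and 3050 CPM in WT 2, in each case below the 3735, 3727 and 3930 CPM of all microglia with Poisson intervals that did not meet. Csf2ra in these cells was 63.4 CPM in the deficient library from 4 UMIs, 183 CPM in WT 1 and 131 CPM in WT 2. In both WT libraries that was above the level of all microglia, and in the deficient library the interval of 17.3 to 162 CPM contained it.

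Microglia with at least 4 genes of a list headed by Lpl, Cst7 and Itgax, which mark microglia around developing white matter and in disease, numbered 3, 10 and 15. Their Csf1r was 1926 CPM in the deficient library, 2436 CPM in WT 1 and 2696 CPM in WT 2. Each value was below that of the interferon-induced cells, but the Poisson intervals of these states overlapped in the deficient library and WT 2. Csf2ra in the cells with Lpl, Cst7 and Itgax list genes was 55.0 CPM from 1 UMI in the deficient library, 233 CPM in WT 1 and 163 CPM in WT 2. The WT values were above those of all microglia, as in the interferon-induced cells. Csf3r was 220 CPM, 217 CPM and 129 CPM in the deficient, WT 1 and WT 2 libraries, with intervals that contained the level of all microglia. Cells with cell cycle genes, 3, 12 and 27 in number, had 2835, 3303 and 3299 CPM of Csf1r in the deficient, WT 1 and WT 2 libraries. These states are score ranges, their cells were deeper than the median microglial cell, and the receptor levels in them were not tested between genotypes.

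Immediate early genes, which respond within minutes to stimulation and to tissue digestion, differed between the libraries. The tertile of all microglia with the lowest share of these transcripts held 70.0% of deficient microglia, 16.4% of WT 1 and 30.1% of WT 2. Csf3r stood at 207, 190 and 172 CPM in the lowest tertile, 188.5, 201 and 178 CPM in the middle tertile and 204, 189 and 173 CPM in the highest tertile, each in the order deficient, WT 1 and WT 2. Deficient Csf3r was thus above both WT values in the lowest and highest tertiles and between them in the middle one. Csf2rb in the lowest tertile was 59.0 CPM in deficient microglia, 43.9 CPM in WT 1 and 42.5 CPM in WT 2, a log2 difference of 0.47 (edgeR adjusted p = 0.03). In the middle tertile it was 53.5 CPM in deficient microglia, 43.2 CPM in WT 1 and 40.8 CPM in WT 2. In the highest tertile it was 50.3 CPM in deficient microglia (exact Poisson 95% interval 38.3 to 64.8), 48.4 CPM in WT 1 and 45.5 CPM in WT 2. The gap between the libraries was smaller there, and the deficient interval contained both WT values. The middle and highest tertiles were not tested, and neither was the part of the score in the Csf2rb difference.

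**Figure D5:**
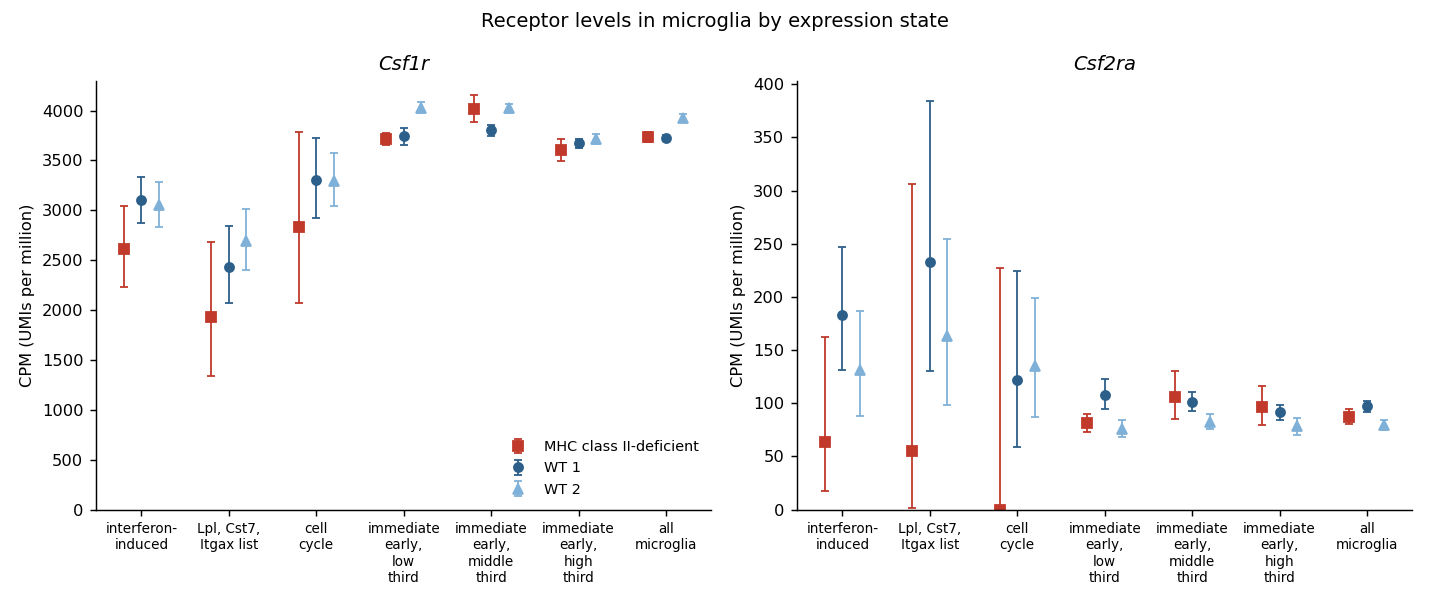
Csf1r (left) and Csf2ra (right) in CPM (linear axes) in microglia of 3 expression states, in tertiles by immediate early gene share and in all microglia. Each point is 1 library and bars are exact Poisson 95% intervals for counting error only. Csf1r falls to 2617 to 3101 CPM in interferon-induced cells and to 1926 to 2696 CPM in cells with Lpl, Cst7 and Itgax list genes, and lies between 3604 and 4030 CPM in the tertiles.

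The genes most like each receptor were found by Pearson correlation of log2(CPM + 1) over the 12 class and library profiles among 7334 genes, as a description of points that share libraries and depth. Csf1r was most like Itm2c (r = 0.976), Sirpa, Ergic3, Sipa1 and Rgs10, all highest in microglia and lowest in neutrophils. Csf2ra was most like Atp6v0d1 (r = 0.961), Relt, Tmem256, Cyp4f16 and Rpl22l1, all higher in monocytes and border macrophages than in microglia and neutrophils. Csf3r was most like Nck1 (r = 0.985), Gabarapl2, Cds2, Prkcb and Usp39, all lowest in border macrophages. The border macrophage points of Csf3r rest on 0 UMIs in the deficient library and 2 in each WT library. The part of these few UMIs in the Csf3r correlations was not tested. Csf2rb, with few UMIs, reached at most 0.88, with Psme1, followed by Sbf1, C1galt1c1, Eapp and Rcc2.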

How the data were processed

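The authors deposited 1 table of unnormalised UMI counts for each library. Per the submitters' processing notes, Cell Ranger 3.0, Seurat 2.2 and the build mm10 were used. Filters on cells and genes, and whether counting used strand, were not stated. Nearly every listed gene had UMIs in at least 5 cells of its table, so an unlisted gene is below that limit and not a measured 0.

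Barcodes under 500 UMIs or 200 genes, or over 10% mitochondrial, were removed. A cell took the class whose marker list had the most UMIs, with at least 3 markers detected and at least 2-fold the UMIs of every other list. Scrublet called 29 of 11264 cells (0.257%), 28 of them deficient, 0 in WT 1 and 1 in WT 2, too few to count as a working doublet call, so these cells were kept, with their removal as an alternative, and doublets may remain. Leiden clusters (scanpy 1.11.5, leidenalg 0.10.2) were an alternative.

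UMIs were summed per library and class, since cells are not replicates. CPM is UMIs per 1000000 UMIs of the class total, and normalised CPM uses TMM. Genes listed in all tables and passing filterByExpr entered the quasi-likelihood test of edgeR 4.0.16 (R 4.3.3), with Benjamini-Hochberg adjustment at 0.05. Microglia were compared as deficient minus WT (1 residual degree of freedom, 2537 genes at an unadjusted p under 0.05), and classes with library as a block (6 residual degrees of freedom). Intervals of CPM (Poisson) and shares (Clopper-Pearson) are at 95% and cover counting error only. The fits were tested on simulated counts. Receptors, lists and rules were chosen with earlier results of these data known. Named pathway genes were the 3 most abundant of each role and up to 4 that passed in each direction; Runx1, Fli1 and Ets2 were named with their values known. Certain pathway genes are not reported here and were left out of the list counts. Alternatives covered scaling, filters, tools (DESeq2 1.42.0, limma voom 3.58.1), gating, depth, doublets and each library left out. Positions are from GENCODE release M21 and promoters from RefSeq.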

Additional observations from a re-analysis of the deposited data

Results flagged for a closer look

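The fitted difference of neutrophils minus microglia in Csf1r was called lower in the 1 deficient library than in WT with TMM scaling. In a fit with an interaction of class and genotype, added after the data were seen, the deficient minus WT value of this difference was -3.37 ± 0.78 on the log2 scale (SE, edgeR quasi-likelihood test, adjusted p = 0.003, over 7323 genes of which 198 passed, 3 residual degrees of freedom). The deficient library had 41.3 CPM of Csf1r in neutrophils, from 2 UMIs in 17 cells, against 264 CPM in WT 1 and 243 CPM in WT 2. The median microglial marker in the same neutrophils moved alongside, at 0.917% of its microglial level in the deficient library against 7.27% in WT 1 and 5.84% in WT 2, and its part in the difference was not tested. Over 9 alternative settings the value ranged from -3.67 to -2.56, and it did not pass with other size factors (-2.56, edgeR adjusted p = 0.10) or with totals alone (-2.60, edgeR adjusted p = 0.16). No other receptor and class passed this test. Csf2ra in neutrophils did not pass at -3.06 ± 1.02 (SE), with 1 Csf2ra UMI in deficient neutrophils. No genotype difference in neutrophil Csf1r expression is read from 2 Csf1r UMIs.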

How the results depend on the processing

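No paired analysis was possible because the genotypes share fewer than 2 replicate numbers. For deficient minus WT microglia, the number of genes passing was 1328, against 491 with DESeq2, 826 over all retained cells, 728 after thinning and 669 in the lowest immediate early tertile. Csf1r, at -0.03, turned to 0.023 over all retained cells, and its log2 ratio to single WT libraries was -0.075 to 0.001. Csf2ra, at -0.0018, turned to 0.001 with other size factors, DESeq2 and the stricter cell filter, 0.003 with limma voom, 0.012 at 4-fold dominance, 0.031 by clusters and 0.008 without called doublets, and its ratio to single WT libraries was -0.15 to 0.14. Csf2rb kept its direction but not its call with DESeq2 (0.37), the stricter filter (0.34), all cells (0.31) and thinning (0.36), and its ratio was 0.29 to 0.40. The ratio of Csf3r was 0.08 to 0.22. Among pathway genes the lowest immediate early tertile turned Socs3 to 0.78 (edgeR adjusted p = 5.04e-07), gave Stat3, at 0.18, a call at 0.64 (edgeR adjusted p = 4.99e-05), and turned Socs1 to 0.009, Csf1 to 0.36, Irf8 to 0.02 and Spi1 to 0.052. All retained cells turned Socs3 to 0.016, Il3ra to -0.53 and Irf8 to 0.029. Thinning turned Il3ra to -0.24 and Irf8 to 0.037, and removal of doublets Il3ra to -0.20. Stat5a, at -0.002, turned to 0.002 with other size factors, 0.011 with limma voom, 0.01 under the stricter filter, 0.005 at 1-fold dominance, 0.017 by clusters, 0.021 without called doublets, 0.007 over all cells, 0.158 after thinning and 0.331 in that tertile. Against single WT libraries Socs3 gave -0.255 to 0.234, Stat5a -0.131 to 0.11, Stat5b -0.124 to 0.264 and Irf8 -0.072 to 0.006.

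For border macrophages minus microglia, 806 genes passed, against 499 at 4-fold dominance, 1522 by clusters and 321 to 804 with a library left out. Csf1r ranged over -1.76 to -1.40, Csf2ra over 1.15 to 1.90, Csf2rb over -1.12 to -0.53 and Csf3r over -2.57 to -2.17 with a library left out. Csf2ra lost its call at 4-fold dominance (1.07) and without the count filter (1.15), Csf3r at 4-fold dominance (-2.45), and Csf2rb turned to 0.12 by clusters. For monocytes, 1359 to 3530 genes passed with a library left out, against 3075, and the receptors ranged over -2.90 to -2.63 (Csf1r), 1.65 to 1.87 (Csf2ra), 0.99 to 1.05 (Csf2rb) and -1.28 to -0.95 (Csf3r). Csf2rb lost its call with other size factors (0.59), DESeq2 (0.54) and the summed copies (0.60). For neutrophils, 5415 genes passed without the count filter and 1474 to 4544 with a library left out, against 3583. The receptors ranged over -3.49 to -2.55 (Csf1r), 1.08 to 1.56 (Csf2ra), 0.74 to 0.93 (Csf2rb) and 1.08 to 1.39 (Csf3r). Totals alone gave 0.10 for Csf2ra, -0.46 for Csf2rb and -0.15 for Csf3r, and Camp-led cells with TMM -0.30 for Csf3r. With totals alone Csf1r stood at -2.82 relative to the median gene, itself at -1.43, so it fell below its range given above. Csf2rb lost its call with other size factors (0.47), DESeq2 (0.50) and Camp-led cells (0.64). Beyond the counts of genes and samples that an alternative removes, the cause of these changes was not tested.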
